A study of Mus musculus with 4 samples.

Results

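The genes described here are the glucocorticoid receptor (Nr3c1), the mineralocorticoid receptor (Nr3c2) and 5 genes that corticosteroid hormones induce, Fkbp5, Sgk1, Tsc22d3, Klf9 and Errfi1. They were chosen by symbol, and every probe set whose annotation gave exactly 1 symbol from this list was taken. This gave 8 of 12422 probe sets, for 6 of the 7 genes and of 8251 genes named on the array, with 1 probe set each for Nr3c1, Fkbp5, Sgk1 and Tsc22d3 and 2 each for Klf9 and Errfi1. No probe set carried Nr3c2 as its single symbol in the annotation used here, so the mineralocorticoid receptor was not analysed.

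Expression arrays had been made from total RNA of area CA1 of the hippocampus of young male C57BL/6J mice, an inbred laboratory strain. All 4 samples formed 1 group of controls, which the experimenter handled and which received nothing else. Their RNA was taken 1, 2, 4 and 6 hours after mice of an experimental group had been given their last shock, with 1 sample per time. Shocked mice were not analysed here, and nothing in the labels tells single mice from pools, so time, animal, dissection and array cannot be told apart.

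Corticosterone from the adrenal gland enters the cell and binds the receptors, which leave a complex with Hsp90 and its cochaperones, move to the nucleus and act on DNA at glucocorticoid response elements. The hippocampus is rich in both receptors; the mineralocorticoid receptor is largely occupied at low hormone levels, and the glucocorticoid receptor is filled after stress and at the daily hormone peak. Among the induced genes, Fkbp5 encodes a cochaperone that lowers the receptor's affinity for hormone and so closes a feedback loop. Sgk1 encodes a serine and threonine kinase of ion transport and neuronal plasticity, and Tsc22d3 encodes the leucine zipper protein GILZ, which restrains inflammatory transcription. Klf9 encodes a zinc finger transcription factor of neuronal maturation, and Errfi1 encodes an adaptor that inhibits receptors of the epidermal growth factor family.

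Windows from 250 bases before to 50 bases after each annotated start (RefSeq, GRCm38.p6) were searched for response elements, and 3 are shown, because 1 holds a complete element, 1 a half-site and 1 neither. The 5 induced genes had 13 windows, 6 of them for Sgk1, 3 for Tsc22d3, 2 for Errfi1 and 1 each for Fkbp5 and Klf9. A search on both strands used the palindromic element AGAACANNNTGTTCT, its half-site TGTTCT, which also lies inside the palindrome, and the GC box GGGCGG. Of 32851 windows of all genes, 3 (0.00913%) held the palindrome, 19% a half-site and 35.7% a GC box. One window of Sgk1 held the palindrome, beginning 189 bases before that start. Half-sites were found in 4 of the 13 windows (3 of Sgk1, 1 of Tsc22d3) and GC boxes in 6. The 250 bases before the start are given 5′ to 3′ on the gene's strand, with the palindrome of Sgk1, the half-site of Tsc22d3 and the GC boxes of Fkbp5 in capitals.
Sgk1, chr10:21993640-21993889, plus strand: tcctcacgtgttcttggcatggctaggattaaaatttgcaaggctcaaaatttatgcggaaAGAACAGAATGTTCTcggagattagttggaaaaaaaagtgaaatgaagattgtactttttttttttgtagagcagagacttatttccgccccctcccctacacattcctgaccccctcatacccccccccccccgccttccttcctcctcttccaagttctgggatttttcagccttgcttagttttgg
Tsc22d3, chrX:140600523-140600772, minus strand: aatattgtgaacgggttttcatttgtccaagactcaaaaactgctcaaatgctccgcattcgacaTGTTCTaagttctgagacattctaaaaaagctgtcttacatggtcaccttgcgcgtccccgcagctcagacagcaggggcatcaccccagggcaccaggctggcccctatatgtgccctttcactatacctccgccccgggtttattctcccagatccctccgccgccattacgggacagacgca
Fkbp5, chr17:28486150-28486399, minus strand: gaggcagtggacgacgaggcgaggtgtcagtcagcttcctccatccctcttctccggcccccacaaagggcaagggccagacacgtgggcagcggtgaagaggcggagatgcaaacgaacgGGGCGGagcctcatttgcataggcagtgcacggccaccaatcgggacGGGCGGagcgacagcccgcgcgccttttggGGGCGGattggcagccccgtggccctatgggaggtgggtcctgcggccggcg
These letters describe the windows and not binding, and the probe sets do not tell the starts of a gene apart.

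The arrays were first checked as a whole. Of the 12422 probe sets, 7453 were bright enough to be tested, and 7 of the 8 described here were among them. The 3′ over 5′ signal ratio of the control transcript Gapdh, a reading of RNA integrity, was 4.52 at 1 hour and between 1.18 and 1.37 later. That of the second control, b-Actin, was 2.34 at 1 hour and between 1.76 and 2.00 later. Markers of CA1 pyramidal neurons summed to a signal of 6663 at 1 hour and between 7916 and 7961 later, over 6 of 9 fixed markers that had a probe set. Dkk3 made this difference, with 1384 at 1 hour and 2457 to 3316 later, and without it the sums were 5279.5, 5025.5, 5459 and 4644 from the earliest to the latest sample. Wfs1 (1964 to 2797) was also bright, whereas the Camk2a probe set lay near the floor (29.7 to 94.9). Choroid plexus markers summed to 3316 at 1 hour and between 936 and 1253 later (5 of 6 markers). In bulk tissue, fewer cells of a type and less RNA per cell cannot be told apart.

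Signals are the deposited values on a linear scale. Differences are on the log2 scale after quantile normalization, with values under a floor signal of 35.1 set to that floor, and levels of different probe sets are not compared with each other. P-values come from limma fits over all 7453 tested probe sets, with Benjamini-Hochberg adjustment.

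The receptor Nr3c1 was measured by a probe set that lay at the bottom of the scale. Its signal was 10.9 at 1 hour, 25.1 at 2 hours, 36.5 at 4 hours and 51.7 at 6 hours. The first 2 values were below the floor of 35.1, the 4-hour value was just above it and the 6-hour value was further above. The values below the floor have no order among themselves and no fold is given. Its mean lay at the 14.3rd percentile of all probe sets and it was not tested. For the 1- and 2-hour samples this gave an upper bound for the signal of the probe set and no level of Nr3c1 RNA. How well the probe set detects the transcript was not tested.

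The probe sets of the 5 induced genes passed the filter on low values. Fkbp5, the receptor's cochaperone, had a signal of 836 at 1 hour, 1162 at 2 hours, 855 at 4 hours and 1281 at 6 hours. The 2- and 6-hour samples were thus high and the 1- and 4-hour samples low, with 1.51-fold between the highest and the lowest. The 1- and 4-hour samples differed by 0.017 on the log2 scale and the 2- and 6-hour samples by 0.15. Its SD over the 4 samples was 0.30, against a median of 0.25 over all tested probe sets. The linear trend from 1 to 6 hours was 0.37 (SE 0.31, limma adjusted p = 0.82). Without the 6-hour sample it was -0.13, so its sign rested on that sample.

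Sgk1, the kinase, had a signal of 1132 at 1 hour, 1390 at 2 hours, 667 at 4 hours and 940 at 6 hours. It was highest at 2 hours and lowest at 4 hours, a difference of 1.06 on the log2 scale and a factor of 2.09 between the highest and the lowest sample. The 4-hour sample lay at -0.78 against the mean of the other 3, whose SD was 0.29 (limma adjusted p = 1). The range was 0.57 without the 4-hour sample, 0.79 without the 2-hour sample and 1.06 without the 1-hour sample. The trend over the hours was -0.60 (SE 0.39, limma adjusted p = 0.76). In the same 4-hour sample the summed signal of 7 astrocyte markers was the lowest of the 4 (19712, against 20497 to 23121), and that of 7 oligodendrocyte markers was 23322 (20302 to 25591 in the others). That of 6 microglia markers was the highest there (6755, against 5199 to 5949). Their part in the Sgk1 value was not tested.

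Tsc22d3, which encodes GILZ, had a signal of 187 at 1 hour, 156 at 2 hours, 205 at 4 hours and 88.2 at 6 hours. The 6-hour sample stood below the other 3, at -1.03 on the log2 scale with an SD of 0.23 among those 3, and the highest sample was 2.32-fold above the lowest. This difference had a limma adjusted p of 0.999. Without the 6-hour sample the range was 0.45, against 1.21 with it, and the trend turned from -0.86 (SE 0.57, adjusted p = 0.77) to 0.31. The range fell under 2-fold with a 40th percentile floor (0.87). It was also under 2-fold where 32 was added to each signal in place of a floor (0.98). None of the values lay at the floor of 35.1. The 6-hour sample also had the lowest summed signal of 9 endothelial markers (1862, against 2361 to 2787). There 5 of 6 tested endothelial markers were below the mean of the other 3. Taken singly, 5 of the 9 were lowest in that sample. The summed signal of oligodendrocyte markers was the highest of the 4 there (25591). The part of endothelial and oligodendrocyte RNA in the Tsc22d3 value was not tested.

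**Figure D1:**
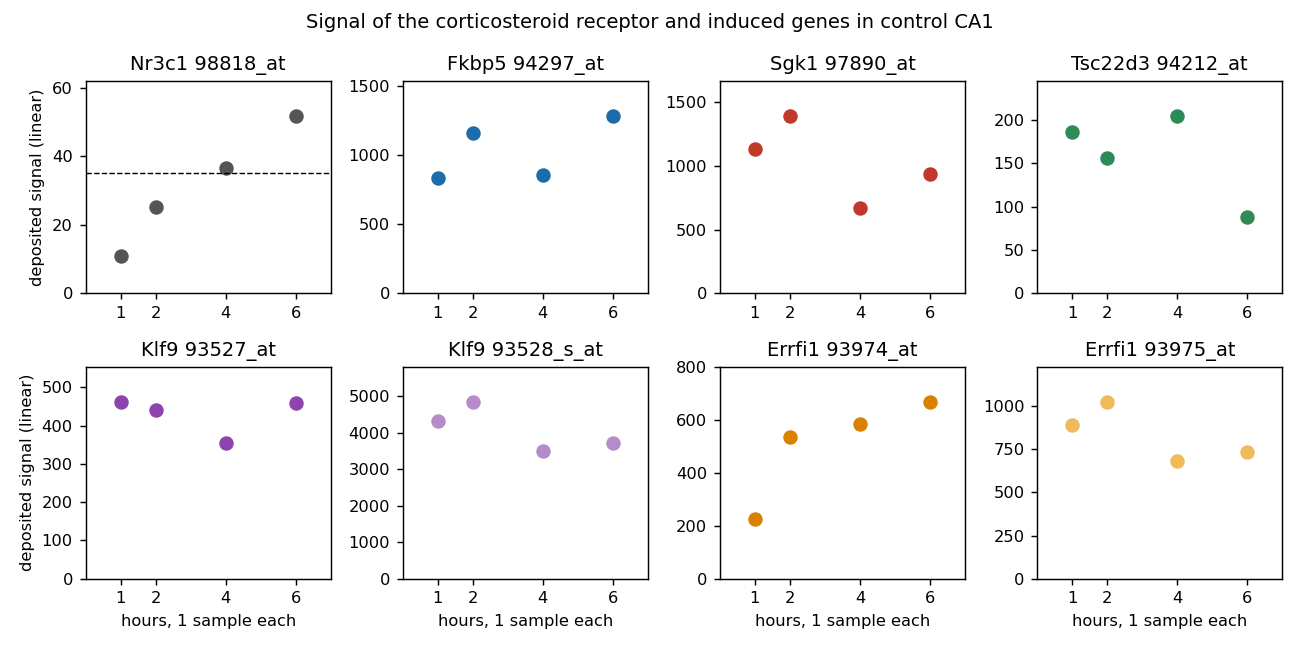
Deposited signal (linear axes from 0, each panel with its own scale) of the 8 probe sets against the hour of sampling, each point 1 sample; the dashed line in the Nr3c1 panel is the floor signal of 35.1. Sgk1 is lowest at 4 hours (667), Tsc22d3 at 6 hours (88.2) and Errfi1 93974_at at 1 hour (227).

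Klf9, the zinc finger factor, was measured by 2 probe sets, which were both steady over the 4 samples. The 93528_s_at set, whose suffix marks probes that can match more than 1 transcript, had a signal of 4324 at 1 hour, 4845 at 2 hours, 3507 at 4 hours and 3710 at 6 hours. The 93527_at set had 462 at 1 hour, 441 at 2 hours, 354 at 4 hours and 459 at 6 hours. Both were lowest at 4 hours, with 1.39- and 1.34-fold between the highest and the lowest sample. The highest was the 2-hour sample for 93528_s_at and the 1-hour sample for 93527_at. At 6 hours they lay at -0.17 and 0.12 on the log2 scale against the mean of the other 3. Their trends were -0.33 (SE 0.22, limma adjusted p = 0.78) and -0.11 (SE 0.31, adjusted p = 0.95). After each was centred on its own mean, the root mean square difference between them over the 4 samples was 0.18. Over 1213 pairs of tested probe sets that shared a gene, the median of this difference was 0.33, and the Klf9 pair lay at the 16.5th percentile.

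Errfi1, the inhibitor of epidermal growth factor receptors, was also measured by 2 probe sets, and these parted in the 1-hour sample. The 93974_at set had a signal of 227 at 1 hour, 535 at 2 hours, 585 at 4 hours and 669 at 6 hours. The 93975_at set had 887 at 1 hour, 1021 at 2 hours, 678 at 4 hours and 735 at 6 hours. The first was low at 1 hour and within 1.25-fold over the other 3 samples, whereas the second was highest at 2 hours and lowest at 4 hours.

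In the 1-hour sample, 93974_at lay at -1.35 against the other 3 (SD of those 3, 0.16; limma adjusted p = 0.031), and 93975_at lay at 0.19 (SD 0.31; adjusted p = 0.76). In that comparison 2.35% of all tested probe sets were called and 1 of the 7 tested probe sets described here, this one. At an unadjusted p under 0.05 the count was 1 of 7 too, where 15.8% of all were under it. The fit assumes that the single sample varies like the other 3, and it describes that array, not the time. The adjusted p ran from 0.0163 to 0.128 over the alternatives. It was above 0.05 with the floor at the 40th percentile (0.1), with no filter on low values (0.128), without the intensity trend in the prior (0.12), and without the 2-hour sample (0.0586) or the 6-hour sample (0.0722). The value stands beside the Gapdh ratio of 4.52 and the b-Actin ratio of 2.34 in the 1-hour sample. The position of each probe set along the transcript was not used here, and the part of RNA integrity was not tested.

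The difference between the Errfi1 probe sets in the 1-hour sample, each against the other 3, was -1.53. Of the 1213 same-gene pairs, 5.85% differed by as much in that sample. Over all 4 samples the root mean square difference of the pair was 0.74, at the 90.8th percentile of same-gene pairs. Over the 2-, 4- and 6-hour samples it was 0.36. Within those 3 samples 93974_at was lowest at 2 hours, where 93975_at was highest, so the pair gave no single pattern for the gene.

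**Figure D2:**
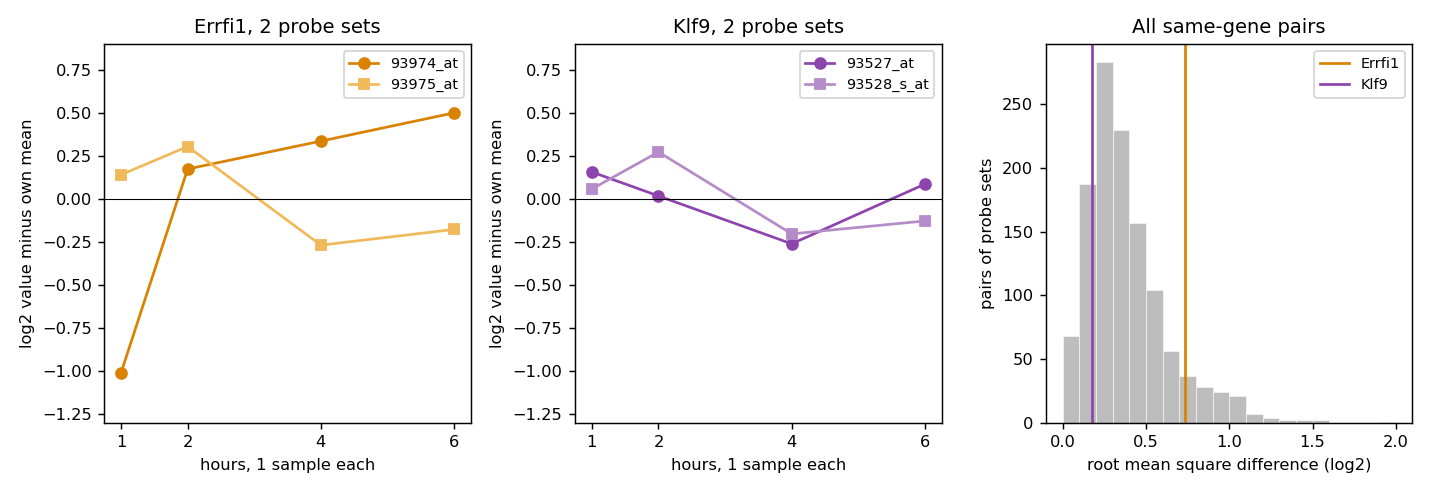
Left and middle, log2 value minus the probe set's own mean over the 4 samples for the pairs of Errfi1 and Klf9, with lines joining the 4 samples (1 array each). Right, number of same-gene pairs of tested probe sets by root mean square difference, with lines at 0.74 for Errfi1 and 0.18 for Klf9.

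Across the 7 tested probe sets, 3 had a range of 2-fold or more (Sgk1, Tsc22d3 and Errfi1 93974_at), against 17.9% of all tested probe sets. The median range was 0.59, against 0.56 for all tested probe sets. The lowest sample differed among the 3, the 4-hour sample for Sgk1, the 6-hour sample for Tsc22d3 and the 1-hour sample for Errfi1 93974_at, and without it the range was 0.57, 0.45 and 0.32. Over the 2-, 4- and 6-hour samples alone, 2 of 7 had such a range, against 9.04%.

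**Figure D3:**
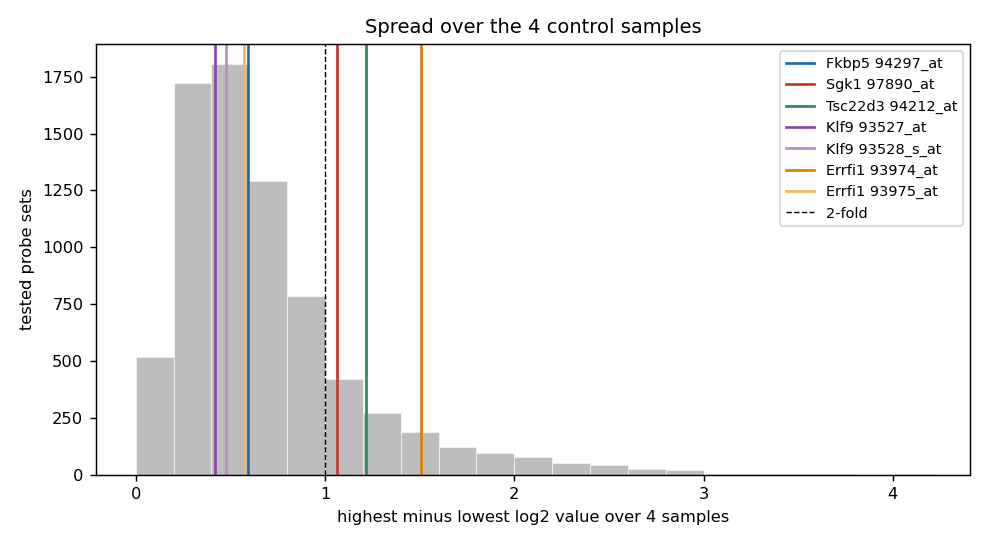
Number of tested probe sets by the range over the 4 samples (highest minus lowest log2 value, bins of 0.2), with coloured lines for the 7 tested probe sets described and a dashed line at 2-fold. Ranges of 0.42 to 0.59 for Fkbp5, Klf9 and Errfi1 93975_at lie in the bulk, and 1.06, 1.21 and 1.51 lie beyond the dashed line.

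The induced genes did not follow 1 order of samples. In the 2-hour sample 6 of 7 were above the mean of the other 3, with a median difference of 0.24, where 51.5% of all tested probe sets were above. In the 4-hour sample 2 of 7 were above, Tsc22d3 and Errfi1 93974_at, with a median of -0.33, where 50.8% of all were above. In the 1-hour sample 5 of 7 were above (54.7% of all) and in the 6-hour sample 3 of 7 (50% of all). The 2-hour sample was the highest for 3 of 7 (21% of all) and the 4-hour sample the lowest for 4 of 7 (24% of all). The 7 probe sets include 2 pairs of the same gene, so they are not 7 separate readings.

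No probe set described here passed the test in the 2-, 4- or 6-hour sample, where 0% of all tested probe sets did by limma. At an unadjusted p under 0.05, 1 of 7 (Sgk1 at 4 hours) was below the threshold in the 4-hour sample, where 2.76% of all were. The counts in the 2- and 6-hour samples were 0 of 7, where 2.64% and 2.27% of all were. For the linear trend from 1 to 6 hours, 0% of all tested probe sets passed at an adjusted p under 0.05 and 6.24% had an unadjusted p under 0.05. Of the 7, 0 passed and 1 had an unadjusted p under 0.05, Errfi1 93974_at, with a trend of 1.25 (SE 0.43, limma adjusted p = 0.74). Without the 1-hour sample its trend was 0.40.

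**Figure D4:**
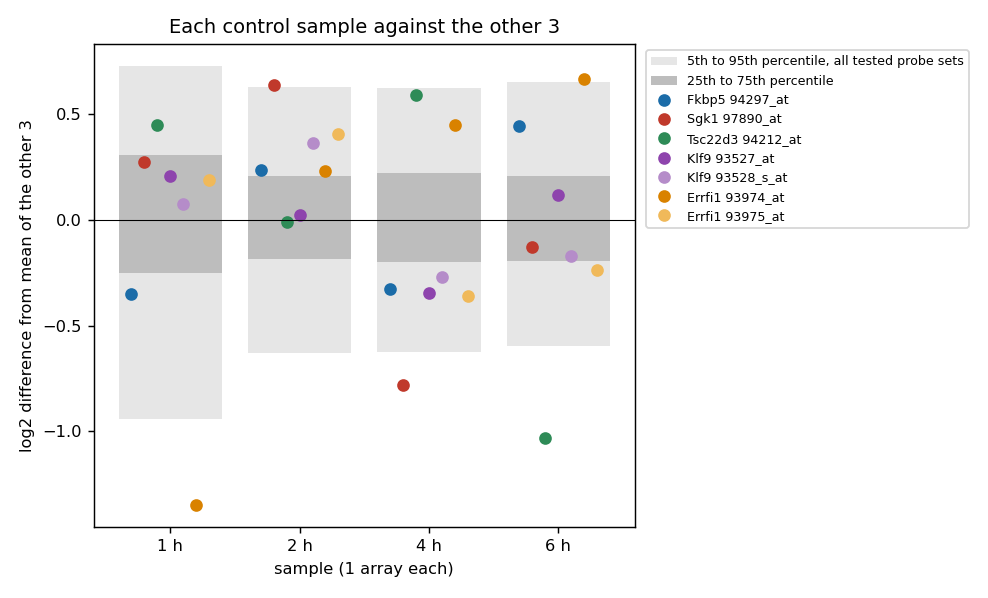
Log2 difference of each sample from the mean of the other 3 for the 7 tested probe sets (points), over the 25th to 75th percentile (dark grey) and the 5th to 95th percentile (light grey) of all tested probe sets. Furthest below the light band are Errfi1 93974_at at 1 hour (-1.35), Sgk1 at 4 hours (-0.78) and Tsc22d3 at 6 hours (-1.03).

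Genes around the receptor were then read from fixed lists, each gene by its brightest probe set. Of the chaperones that hold the receptor ready for hormone, 9 of 11 had a probe set and were tested. One of the 9 had a range of 2-fold or more (11.1%, against 17.9% of all), and their median range was 0.51. That one was Stip1, which links Hsp70 to Hsp90, with 265 at 1 hour, 621 at 2 hours, 142 at 4 hours and 550 at 6 hours. St13, an Hsp70 cochaperone, had 174, 347, 245 and 263 from the earliest to the latest sample, and Dnajb1, a cochaperone of the Hsp40 family, had 700, 1018, 844 and 596. Of the 9 chaperones, Stip1, St13 and Hspa8 were higher at 2 and 6 hours than at 1 and 4 hours, as Fkbp5 was. The others were not. These are values of 4 single samples. The share of all tested probe sets with this order was not counted, and no link was tested.

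Of the transcriptional coregulators, 7 of 11 were tested and 0 had a range of 2-fold or more. Smarca4, the ATPase of a chromatin remodelling complex, had 1428 at 1 hour and between 2274 and 2912 later. Ppargc1a, a coactivator of mitochondrial genes, had 121 at 1 hour and between 213 and 232 later. Ncoa1, a steroid receptor coactivator, had 443, 581, 336 and 480 from the earliest to the latest sample. In the 2-hour sample 6 of 7 coregulators were above the mean of the other 3, with a median difference of 0.29 (51.5% of all tested probe sets were above). In that sample the chaperones had 6 of 9 above (median 0.17), the genes of steroid conversion, transport and release 1 of 4 (median -0.11) and the kinases, adaptors and relatives 6 of 14 (median -0.06), so the lists did not share a direction.

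Of the genes of steroid conversion, transport and release, 4 of 12 symbols on the list were tested. Hsd11b1, the enzyme that regenerates active corticosterone inside cells, had 907, 795, 565 and 844 from the earliest to the latest sample, lowest in the 4-hour sample. Crhr1, the receptor of corticotropin-releasing hormone, had 144, 67.4, 164 and 269, a range of 2.04 on the log2 scale. It was the 1 of 4 with a range of 2-fold or more (25%, against 17.9% of all). Its linear trend did not pass (limma adjusted p = 0.745). Abcb1a, a transporter of the blood-brain barrier that exports corticosteroids, had 163, 115, 128 and 82.4, lowest in the 6-hour sample. The summed endothelial signal and Tsc22d3 were also lowest there, as were 24% of all tested probe sets. The part of endothelial RNA in the Abcb1a value was not tested. Hsd11b2, the enzyme that inactivates corticosterone, had 32.3 to 41.0, around the floor of 35.1.

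Of 30 other genes known to be induced by corticosteroids, 24 had a probe set and 19 were tested. Of these, 4 had a range of 2-fold or more (21.1%, against 17.9% of all). In the 2-hour sample 13 of 19 were above the mean of the other 3, with a median difference of 0.24 (51.5% of all were above). Per1, a clock repressor, was the 1 gene on the list that passed a test: it had 152 at 1 hour and between 452 and 482 later (-1.60, SD of the other 3 0.060, limma adjusted p = 0.019). This was 1 of 19 in the 1-hour sample, where 2.35% of all tested probe sets passed. The adjusted p of Per1 ran from 0.0109 to 0.0714 over the alternatives and was above 0.05 with the floor at the 40th percentile, without the intensity trend in the prior (0.067) and without the 2-hour sample (0.0549). Like Errfi1 93974_at, it was low in the sample with the Gapdh ratio of 4.52. Gadd45a, a DNA damage response gene, had 192, 189, 213 and 66.4 from the earliest to the latest sample. Cdkn1a, a cell cycle inhibitor, had 144, 166, 211 and 96.0, and Pdk4, a mitochondrial kinase that spares glucose, had 202, 243, 164 and 114. Gadd45a, Cdkn1a and Pdk4 were thus lowest in the 6-hour sample, where Tsc22d3 also was. Other members, such as Per1 and Mt1, were lowest in other samples. The 6-hour sample was the lowest for 24% of all tested probe sets, and no link was tested. In that sample 5 of 19 members of the list were above the mean of the other 3 (median -0.16, where 50% of all were above). The metallothioneins Mt1 (10453 to 12633) and Mt2 (14014 to 16964) were among the steady members.

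Of the kinases, adaptors and relatives of the induced genes, 14 of 19 were tested and 0 had a range of 2-fold or more, with a median range of 0.46. Erbb3, a receptor of the epidermal growth factor family, had 300, 196, 196 and 265 from the earliest to the latest sample. Fkbp3, a nuclear relative of Fkbp5, had 793, 718, 789 and 511, and Pdpk1, the kinase that activates Sgk1, had 1857, 1470, 1672 and 1176. For the linear trend, 0 members of the 5 lists passed at an adjusted p under 0.05, as for all tested probe sets. Unadjusted p-values were under 0.05 for 2 of 53 tested genes of the lists, against 6.24% of all tested probe sets. These were Dio2 with a trend of -0.70 (limma adjusted p = 0.74) and Tsc22d4 with one of 0.58 (adjusted p = 0.74).

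The probe sets closest in pattern were taken by the root mean square difference of centred log2 values over the 4 samples, among 6741 candidates with 1 symbol. For Tsc22d3 they were Syt3 (0.056), with 268, 211, 297 and 116 from the earliest to the latest sample, and Fosl2 (0.083), with 175, 125, 176 and 76.2. For Sgk1 they were Rrp1b (0.070), with 193, 222, 103 and 164, and Eed (0.093), with 194, 262, 134 and 173. For Fkbp5 they were Sub1 (0.017), with 577, 814, 609 and 887, and Smim10l1 (0.026), with 130, 178, 126 and 203. Within 0.1 of the pattern lay 7 candidates for Tsc22d3, 4 for Sgk1 and 69 for Fkbp5. A search of 6741 candidates over 4 samples can find such matches without any link between the genes, and no link was tested.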

How the data were processed

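The authors deposited 1 intensity value per probe set and array, on a linear scale. The values themselves show scaling to a common level, a mean of 500.3 in each column after trimming 2% at each end. For labelling, scanner software and genome build the sources used here give nothing, and detection calls were not used. The number of arrays, 4, limits the precision.

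From 12488 probe sets, 66 controls were set aside. Of the remaining 12422, 10833 had 1 gene symbol, 396 several and 1193 none. Current symbols came from RefSeq GRCm38.p6 by gene identifier (10817 matched). The columns were quantile normalized, floored at the 20th percentile (35.1) and put on the log2 scale. Probe sets with a mean at or above the 40th percentile were tested (7453) with limma 3.58.1 in R 4.3.3, using lmFit and eBayes with an intensity trend, two-sided. The fits were a linear trend in hours and each sample against the other 3. With 4 samples each leaves 2 residual degrees of freedom. P-values measure the spread between these samples, which may be technical, since no label names separate animals. Plots used Python 3.11.15 and matplotlib 3.10.9.

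The genes and the 5 lists were chosen with earlier results of these data known. Named were all probe sets of the chosen genes, the 3 tested members of each list with the largest range, any that passed a test, and the 2 probe sets closest in pattern to the brightest probe set of 3 genes. Dkk3, Wfs1, Camk2a, Ttr, Igfbp2, Hspa8, Hsd11b2, Pdk4, Dio2, Tsc22d4, Mt1 and Mt2 were named after their values were seen. Alternatives changed the normalization, floor, filter, prior and time coding, and left out each sample. In the alternative with no floor, 32 was added to each signal before the log2 scale, which narrows differences between low signals.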

Additional observations from a re-analysis of the deposited data

Results flagged for a closer look

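Of 32 probe sets and measures examined for a single sample far from the other 3, 6 stood apart. The measure is the gap from the extreme sample to its neighbour as a share of the whole range, with 0.829 as the limit for 4 samples. It was taken on log2 values for the probe sets and the Gapdh ratio, and on linear sums for the markers. The marker sums were not examined on the log2 scale, so their place above the limit, and the count of 6, hold for the linear scale only. The 6 comprised 0 of 7 tested probe sets of the corticosteroid genes, 3 of 15 genes of the surrounding lists and 3 of 10 sample measures. Chance marks about 1 in 20 groups that were not chosen for their spread, but the 15 genes were taken for the largest range over the same samples, so their count cannot be set against that share.

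Of the 6, 3 were genes of the surrounding lists. Per1 was low in the 1-hour sample (0.927), as was the coactivator Ppargc1a (0.845), and Gadd45a was low in the 6-hour sample (0.870). The other 3 were measures of the sample as a whole, each extreme at 1 hour. The summed signal of CA1 pyramidal neuron markers was low (0.966), but not without Dkk3 (5279.5, against 4644 to 5459). That of choroid plexus markers was high (0.867), and Ttr gave most of it (2246 of 3316). Of the 5 choroid plexus markers only Igfbp2 was not highest at 1 hour (465, against 358 to 597 later). The Gapdh 3′ over 5′ ratio was high too (0.891). Of the tested CA1 markers 2 of 5 were above the mean of the other 3 at 1 hour, with a median difference of -0.0085. The b-Actin ratio (2.34, against 1.76 to 2.00) did not stand apart. The part of these sample measures in the low values of Per1 and Ppargc1a was not tested.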

How the results depend on the processing

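The number of probe sets called in the 1-hour sample, 175, was 272 on the values as deposited, 3 with the floor at the 40th percentile, 365 with no filter on low values, 0 without the intensity trend in the prior, and 87 to 242 when another sample was left out. With no filter, 217, 227 and 211 were called in the 2-, 4- and 6-hour samples, against 0. Leaving out a sample gave 0 to 1 calls in the 4-hour sample and 0 to 3 for the linear trend, the cause of which was not tested. The number of genes with a 2-fold range moved from 0 to 1 for coregulators on the values as deposited and with equal medians. For steroid conversion, transport and release it moved from 1 to 2 with equal medians, and ran from 0 to 1 with a sample left out. For the other induced genes it moved from 4 to 2 with no floor (32 added to each signal instead) and with a floor at the 40th percentile. It ran from 1 to 3 with a sample left out.

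Among the 7 tested probe sets of the corticosteroid genes, 311 of 329 differences and trends under an alternative kept their direction and their side of the threshold, 13 changed sign and 5, all for Errfi1 93974_at at 1 hour, passed the threshold no longer. The 2-hour difference of Tsc22d3, -0.0089, was 0.060 on the values as deposited and 0.0076 with equal medians. The other sign changes came from leaving out a sample. Over those runs the trend ranged from -0.13 to 0.55 for Fkbp5, from -1.06 to 0.31 for Tsc22d3 and from -0.70 to 0.090 for Klf9 93527_at. The 2-hour difference ranged from -0.39 to 0.21 for Tsc22d3, from -0.10 to 0.10 for Klf9 93527_at and from -0.24 to 0.51 for Errfi1 93974_at. The 4-hour difference of Errfi1 93974_at ranged from -0.0023 to 0.75. The 6-hour difference ranged from -0.44 to 0.090 for Sgk1 and from -0.0015 to 0.21 for Klf9 93527_at. The 1-hour difference of Klf9 93528_s_at ranged from -0.017 to 0.23. No paired analysis was possible because there is 1 group.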

Other observations

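Several genes of the corticosteroid lists were too dim to be tested and still differed between samples. They were named after their values were seen, and the values are given without a test. Tiparp, a hormone- and dioxin-responsive enzyme, had a signal of 235 at 1 hour, 163 at 2 hours, 48.7 at 4 hours and 55.6 at 6 hours. Ncoa2, a steroid receptor coactivator, had 15.6 in the 1-hour sample, below the floor of 35.1, and 87.1, 96.3 and 135 in the others. Egfr, the receptor that the Errfi1 protein inhibits, had 64.4, 146, 89.5 and 73.6 from the earliest to the latest sample, highest in the 2-hour sample. The 93975_at set of Errfi1 was also highest there, whereas the 93974_at set was highest at 6 hours. The 2-hour sample was the highest for 21% of all tested probe sets, and no link was tested. Serpina6, the corticosteroid-binding globulin, had 95.3, 89.9, 70.0 and 42.0.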
